A study of Mus musculus with 6 samples.

Results

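The 44 genes described here are cell cycle genes sorted by the phase in which they are known to be expressed, measured in lung endothelial cells (ECs) from mice with breast cancer metastases. They were chosen by name from textbook knowledge of the cycle, with earlier results of these data known. They comprise 2 D-type cyclins of G1, 18 genes of the entry into S phase (G1/S) and 24 genes of G2 and mitosis (G2/M). Each gene was read from the brightest probe set annotated to it alone, which found all 44 among 18193 genes measured in this way. The members had 106 such probe sets in all.

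Every sample came from NSG mice, which lack lymphocytes and natural killer cells, injected into the tail vein at 6 to 8 weeks of age with MDA-MB-231-LM2, a lung-metastatic derivative of a human breast cancer line. Liposomes loaded with PBS (3 arrays) or with clodronate, which kills the phagocytes that take them up (3 arrays), went into the vein 14, 16 and 18 days after the tumor cells, and whole lungs were taken at 20 days, called 3 weeks in the labels. ECs were sorted as CD31+ cells negative for CD45, CD11b, EpCAM, CD140a/b and the GFP of the tumor cells, and 1 Affymetrix mouse array was run per sample. The labels call the samples biological replicates without saying how many mice each one holds, tumor-free mice are not analysed here, and this host still has granulocytes and monocytes of its own.

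Cells that leave rest pass through G1, driven by D-type cyclins, and commit to S phase when E2F transcription factors are released from the retinoblastoma protein. The E2F targets are the G1/S genes: E-type cyclins, the MCM helicase and its loaders, and the enzymes that make deoxynucleotides. The G2/M genes are switched on later through FOXM1, B-MYB and the NF-Y factor, and encode the kinases, kinesins, kinetochore and checkpoint proteins of mitosis. Most ECs of the adult lung rest outside the cycle, so G2/M and most G1/S transcripts are expected mainly from the cells that divide. The source of the transcripts was not tested here. On an array of bulk RNA, fewer dividing cells and less RNA of these genes per dividing cell cannot be told apart.

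The phase classes differed in the sequence upstream of their genes. Members were chosen by name without reading these sequences. The phases are known in part by their E2F and NF-Y control, so the motifs are no independent check of them. Promoter windows from RefSeq (assembly GRCm38.p6, 250 bases before to 50 after the gene's start) were found for 34 of the 44 members and for 27025 genes in all. Motifs were sought on both strands: 4 E2F words (any of TTCCCGC, also TTGGCGC, also TTCGCGC and also TTGCCGC), the cell cycle homology region or CHR (TTTGAA or TTCGAA), and the CCAAT box that NF-Y binds. An E2F word was in 9 of 15 G1/S genes (60.0%), in 2 of 19 G2/M genes (10.5%) and in 10.9% of all genes. A CHR and a CCAAT box together were in 15 of 19 G2/M genes (78.9%), in 2 of 15 G1/S genes (13.3%) and in 8.61% of all genes. In the member windows, hits of different motifs overlapped 2 times. These matches describe letters and not binding.

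Cdk1, Top2a and Cdc20 are shown as G2/M genes that hold the CHR and CCAAT box, Mcm5 and Mcm6 as G1/S genes with several E2F words, and Ccne1 as one of the genes with the smallest p between the groups. The 250 bases before the start are printed 5′ to 3′ on the gene's strand, with motif letters in capitals. Positions are chr10:69352913-69353162 (minus strand), chr11:99024190-99024439 (minus strand), chr4:118437344-118437593 (minus strand), chr8:75109259-75109508 (plus strand), chr1:128359706-128359955 (minus strand) and chr7:38107491-38107740 (minus strand).
Cdk1: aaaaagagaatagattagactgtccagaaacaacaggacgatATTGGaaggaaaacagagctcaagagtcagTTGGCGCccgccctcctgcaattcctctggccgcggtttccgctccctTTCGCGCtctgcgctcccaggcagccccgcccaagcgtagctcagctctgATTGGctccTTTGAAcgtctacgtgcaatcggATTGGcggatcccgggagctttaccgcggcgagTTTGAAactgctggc
Top2a: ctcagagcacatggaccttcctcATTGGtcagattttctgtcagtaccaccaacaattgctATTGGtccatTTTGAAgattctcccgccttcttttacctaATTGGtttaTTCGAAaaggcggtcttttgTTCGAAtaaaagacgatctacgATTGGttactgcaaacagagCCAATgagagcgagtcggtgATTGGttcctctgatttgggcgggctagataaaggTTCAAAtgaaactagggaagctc
Cdc20: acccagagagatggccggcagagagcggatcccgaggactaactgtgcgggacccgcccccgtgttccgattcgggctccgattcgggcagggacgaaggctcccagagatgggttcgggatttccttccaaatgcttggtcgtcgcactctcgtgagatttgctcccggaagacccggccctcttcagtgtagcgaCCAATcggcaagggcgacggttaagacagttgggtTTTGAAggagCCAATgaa
Mcm5: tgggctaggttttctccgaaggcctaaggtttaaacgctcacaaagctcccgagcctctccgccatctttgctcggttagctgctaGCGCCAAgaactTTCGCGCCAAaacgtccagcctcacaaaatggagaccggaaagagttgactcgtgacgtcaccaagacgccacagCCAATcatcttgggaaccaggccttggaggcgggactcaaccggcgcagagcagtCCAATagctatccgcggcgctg
Mcm6: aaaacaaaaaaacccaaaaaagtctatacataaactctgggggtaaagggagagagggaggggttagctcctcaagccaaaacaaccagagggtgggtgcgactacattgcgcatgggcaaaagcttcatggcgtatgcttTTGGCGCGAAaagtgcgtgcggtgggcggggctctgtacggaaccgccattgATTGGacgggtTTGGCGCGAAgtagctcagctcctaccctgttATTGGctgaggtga
Ccne1: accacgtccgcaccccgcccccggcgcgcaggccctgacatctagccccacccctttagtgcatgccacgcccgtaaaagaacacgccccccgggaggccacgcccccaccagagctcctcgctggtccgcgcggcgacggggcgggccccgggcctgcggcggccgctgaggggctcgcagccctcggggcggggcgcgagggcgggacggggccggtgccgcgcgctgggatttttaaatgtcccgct

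The Cdk1 window held 3 CCAAT boxes, 2 CHR words and 2 E2F words. Mki67 was the other G2/M gene with an E2F word. The Top2a window held 6 CCAAT boxes and 4 CHR words. The Mcm6 window held 5 E2F words, some of them overlapping and 1 beyond the printed stretch. No capital is found in the Ccne1 window, which says only that these letters are not in it.

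The sorted cells carried the transcripts of ECs. Log2 signals of Pecam1, the gene of CD31, were 13.57, 13.50 and 13.58 in PBS-liposome replicates 1, 2 and 3 and 13.70, 13.53 and 13.64 in clodronate-liposome replicates 1, 2 and 3. Cdh5, which encodes VE-cadherin, lay between 13.25 and 13.58 on all 6 arrays. Correlations over all probe sets were 0.985 to 0.991 for every pair of arrays. Such values rest mostly on differences between genes, so they cannot show whether 1 array stood apart. Every array had a median of 8.13, and 43 of the 44 members lay above it on average, the exception being Tyms (thymidylate synthase, mean 7.84). Markers of other cells that a CD31+ sort can retain are set beside the cell cycle genes further on.

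The main comparison asked whether clodronate-liposome treatment changed the expression of the members. Of the 44, 0 passed the threshold (limma, adjusted p under 0.05 over 45037 probe sets), against 79 of 18193 genes overall (0.434%). At an unadjusted p under 0.05, 2 members were higher, both E-type cyclins, against 4.54% of all genes, and 0 were lower, against 5.49%. Of all 106 member probe sets, 0 passed and the same count of 2 had an unadjusted p under 0.05. The 3 clodronate-liposome arrays lay wholly above the 3 PBS-liposome arrays for 1 member, Ccne2, against 7.49% of all genes, and wholly below them for 0 members, against 8.75%. All of these shares are at or under the background. A difference that misses the threshold does not show that the groups were alike, and the intervals of the single genes give the sizes left possible.

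**Figure D1:**
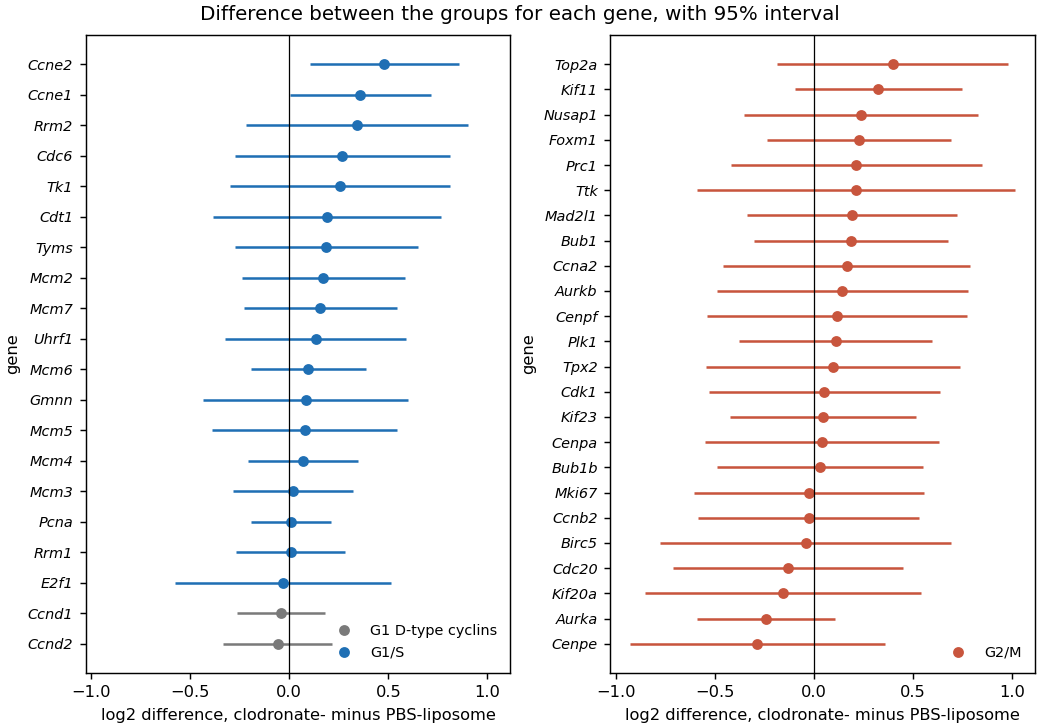
Log2 difference between the groups (x axis, clodronate-liposome minus PBS-liposome, 3 arrays each) for each gene (y axis), with points for the limma estimate and bars for its 95% interval, by phase. Bars of Ccne1 and Ccne2 lie above 0 without adjustment, bars of the other 42 genes cross 0, and the bars of G2/M genes are mostly wider than those of the MCM genes.

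The D-type cyclins, partners of CDK4 and CDK6 in G1, were close to flat. Ccnd1 had log2 signals of 12.65, 12.69 and 12.70 in PBS-liposome replicates 1, 2 and 3 and of 12.55, 12.75 and 12.62 in clodronate-liposome replicates 1, 2 and 3. The difference was -0.04 (95% interval -0.26 to 0.18, adjusted p = 0.929 by limma, n = 3 per group). Ccnd2 had 12.74, 12.42 and 12.44 in the PBS-liposome group and 12.54, 12.37 and 12.52 in the clodronate-liposome group, a difference of -0.06 (adjusted p = 0.916). Ccnd2 was the 1 member of 44 that was not lowest of the control group in PBS-liposome replicate 1, where it was highest.

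Among G1/S genes, the E-type cyclins, which activate CDK2 at S phase entry, had the smallest p values of all members. Ccne2 had log2 signals of 9.81, 10.12 and 10.30 in PBS-liposome replicates 1, 2 and 3 and of 10.30, 10.63 and 10.74 in clodronate-liposome replicates 1, 2 and 3. The lowest treated array and the highest control array were almost level, and the groups did not overlap. The difference was 0.48 (SE 0.16, 95% interval 0.10 to 0.85, unadjusted p = 0.0184, adjusted p = 0.325 by limma), and it was 0.35 to 0.61 with any 1 array left out. Ccne1 had 9.77, 10.09 and 10.24 against 10.17, 10.48 and 10.53, so that 1 treated array lay inside the control range. Its difference was 0.36 (SE 0.15, adjusted p = 0.455). Neither gene passed the test.

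The 6 MCM subunits, which form the helicase that opens replication origins, differed by 0.02 to 0.17, with a median of 0.09 and a smallest adjusted p of 0.811. Mcm2 had log2 signals of 10.62, 11.08 and 11.31 in PBS-liposome replicates 1, 2 and 3 and of 11.18, 11.03 and 11.32 in clodronate-liposome replicates 1, 2 and 3. Mcm5 had 11.24, 11.91 and 12.02 against 11.72, 11.72 and 11.96. In both genes the treated arrays fell between the control arrays, with clodronate-liposome replicate 3 of Mcm2 just above them, and PBS-liposome replicate 1 was the lowest of all 6. By brightest probe set, all 6 MCM genes were lowest in that array. Other Mcm3 probe sets, with means of 11.09 and 10.76, were lowest in clodronate-liposome replicate 2. That with a mean of 10.18 was lowest in clodronate-liposome replicate 1.

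Genes of the factors around the helicase were no exception. Cdc6 and Cdt1 load the MCM ring and Gmnn holds Cdt1 in check after origins have fired, and their differences were 0.27, 0.19 and 0.08. Cdt1 had log2 signals of 10.67, 11.53 and 11.66 in PBS-liposome replicates 1, 2 and 3 against 11.40, 11.34 and 11.69 with clodronate. Its range over the control arrays, 0.99, was the widest of the G1/S genes, just ahead of that of E2f1, the transcription factor. E2f1 had 8.37, 8.86 and 9.36 against 8.69, 8.73 and 9.06 and was the 1 G1/S gene with a difference below 0 (-0.03, 95% interval -0.58 to 0.51). Cdc6 and Tk1 had the widest ranges over the clodronate-liposome arrays among G1/S genes, 0.54 and 0.55.

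Of the genes that supply deoxynucleotides, Rrm2, the regulated subunit of ribonucleotide reductase, had log2 signals of 11.27, 12.10 and 12.24 in PBS-liposome replicates 1, 2 and 3 and of 12.07, 12.16 and 12.40 in clodronate-liposome replicates 1, 2 and 3. The difference was 0.34 (95% interval -0.22 to 0.90, adjusted p = 0.692). Rrm1, the large subunit, differed by 0.01, Tyms by 0.19 and Tk1 (thymidine kinase) by 0.26. Pcna, the sliding clamp of DNA polymerases, was the flattest member. It had 12.98, 13.00 and 13.03 against 13.04, 12.98 and 13.02, and it was the 1 G1/S gene that was not lowest of all 6 arrays in PBS-liposome replicate 1. Uhrf1, which carries DNA methylation through replication, differed by 0.13.

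Among G2/M genes, the markers most used for cycling cells gave no called difference. Mki67, the gene of the Ki-67 antigen, had log2 signals of 11.64, 12.48 and 12.71 in PBS-liposome replicates 1, 2 and 3 and of 12.12, 12.29 and 12.35 in clodronate-liposome replicates 1, 2 and 3. The treated arrays lay between the lowest and the highest control arrays. Top2a, the topoisomerase that untangles sister chromatids, had 10.88, 11.66 and 11.85 against 11.57, 11.92 and 12.09. Its difference of 0.40 was the highest of the G2/M genes (95% interval -0.18 to 0.98, adjusted p = 0.645).

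The regulators of entry into mitosis shared the order of the control arrays. Cdk1, the kinase that starts mitosis, had log2 signals of 10.98, 11.84 and 12.05 in PBS-liposome replicates 1, 2 and 3 and of 11.63, 11.59 and 11.81 in clodronate-liposome replicates 1, 2 and 3. Its difference was 0.05 (95% interval -0.53 to 0.64). The cyclins Ccna2 and Ccnb2 differed by 0.17 and -0.03, and Plk1, a kinase of mitotic entry, by 0.11. Foxm1, the transcription factor of the G2/M program, had 9.65, 10.06 and 10.47 against 10.20, 10.17 and 10.48 (difference 0.23). By brightest probe set, for all 5 the lowest array was PBS-liposome replicate 1 and the highest control array was PBS-liposome replicate 3. Dimmer Foxm1 probe sets, with means of 9.50 and 9.48, were lowest in PBS-liposome replicate 3 and clodronate-liposome replicate 1. Their differences were -0.0031 and -0.0064.

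Some kinases of mitosis spread widely over the control arrays. Ttk, the kinase at the head of the spindle checkpoint, had log2 signals of 8.84, 10.13 and 10.34 in PBS-liposome replicates 1, 2 and 3, a range of 1.51 (2.84-fold) and the widest of all members, and of 10.08, 9.89 and 9.98 in clodronate-liposome replicates 1, 2 and 3. Birc5, the survivin subunit of the chromosomal passenger complex, had a range of 1.35 in the PBS-liposome group (9.93, 11.06 and 11.28) and of 0.33 in the clodronate-liposome group (10.84, 10.51 and 10.79). Aurkb, the kinase of that complex, had the widest range of the G2/M genes over the clodronate-liposome arrays, 0.55, and one of 1.08 over the PBS-liposome arrays. Aurka, the centrosomal kinase, was the exception: 10.18, 10.47 and 10.52 against 9.97, 10.42 and 10.06, with its lowest value in a treated array and a difference of -0.24 (95% interval -0.59 to 0.11, adjusted p = 0.643).

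The 6 kinesins and spindle proteins differed by -0.15 to 0.33. Kif11, the motor that separates the spindle poles, had log2 signals of 9.62, 10.10 and 10.29 in PBS-liposome replicates 1, 2 and 3 and of 10.12, 10.37 and 10.50 in clodronate-liposome replicates 1, 2 and 3, and the smallest p of the G2/M genes (difference 0.33, adjusted p = 0.591). Kif20a, a motor of cytokinesis, had 9.70, 10.70 and 11.03 against 10.18, 10.41 and 10.38. The centromere genes had the narrowest treated arrays, with a median range of 0.10 for Cenpa, Cenpe and Cenpf. Cenpe, a kinesin of the kinetochore, had 9.04, 10.02 and 10.25 against 9.52, 9.50 and 9.43, and the lowest difference of all members (-0.29, 95% interval -0.93 to 0.36, adjusted p = 0.794). The checkpoint genes Bub1, Bub1b, Mad2l1 and Cdc20 differed by -0.13 to 0.19.

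Different probe sets of 1 gene did not always give the same sign. Of the 32 members with several probe sets, 14 had differences on both sides of 0, among them Nusap1 (0.24 and -0.43), Aurka (-0.24 and 0.21) and Kif23 (0.05, -0.13 and 0.02). Of the 106 probe sets, which include the 44 brightest, 88 were lowest of the control group in PBS-liposome replicate 1 and 77 highest in replicate 3. Over all genes by brightest probe set, these counts were 6030 and 5752 of 18193. The low position of replicate 1 thus did not rest on the brightest probe set alone.

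To compare the phases, each gene was set to its mean over the 6 arrays and the deviations were averaged over the genes of a phase. The G1/S level was -0.45, 0.05 and 0.16 in PBS-liposome replicates 1, 2 and 3 and -0.0041, 0.03 and 0.22 in clodronate-liposome replicates 1, 2 and 3. The G2/M level was -0.65, 0.16 and 0.38 in PBS-liposome replicates 1, 2 and 3 and -0.05, 0.03 and 0.13 in clodronate-liposome replicates 1, 2 and 3. Both levels were therefore far lower in PBS-liposome replicate 1 than on any other array, and G2/M was highest in PBS-liposome replicate 3.

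**Figure D2:**
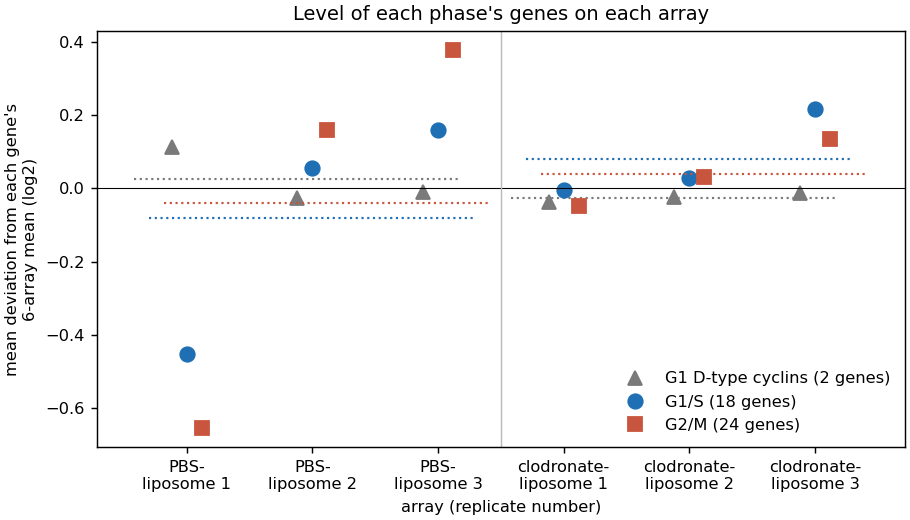
Mean deviation of the genes of each phase from their 6-array means (y axis, log2) on each array (x axis), with grey triangles for 2 D-type cyclins, blue circles for 18 G1/S genes, red squares for 24 G2/M genes and dotted lines for group means. The G2/M level runs from -0.65 to 0.38 over the PBS-liposome arrays and from -0.05 to 0.13 over the clodronate-liposome arrays.

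The group means differed by less than the spread within the PBS-liposome group. The G1/S level was higher with clodronate by 0.16 (SD 0.33 in the PBS-liposome and 0.12 in the clodronate-liposome group, n = 3 each) and the G2/M level by 0.08 (SD 0.54 and 0.09). The median difference was 0.14 over G1/S genes, of which 17 of 18 were above 0, and 0.10 over G2/M genes, of which 17 of 24 were above 0. Over all genes it was -0.0031, with 8924 of 18193 above 0. Members of a phase move together across arrays, so these counts are not independent of each other.

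The contrast between the phases, G1/S level minus G2/M level, was 0.20, -0.10 and -0.22 in PBS-liposome replicates 1, 2 and 3 and 0.04, -0.0042 and 0.08 in clodronate-liposome replicates 1, 2 and 3. The treated arrays all lay inside the range of the control arrays. The group difference in the contrast was 0.08 (SD 0.22 and 0.04). In the control group the contrast had the opposite order to the levels: the array with the lowest levels had the highest contrast. From PBS-liposome replicate 1 to the mean of replicates 2 and 3, the G1/S level was higher by 0.56 (1.47-fold) and the G2/M level by 0.92 (1.90-fold).

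Gene by gene, 40 of 44 members had their lowest value of all 6 arrays in PBS-liposome replicate 1, against 16.2% of all genes. The exceptions were Ccnd1, Ccnd2, Pcna and Aurka. Within the PBS-liposome group, replicate 1 was lowest for 43 of 44 members and replicate 3 was highest for 39, including all 24 G2/M genes. Among the treated arrays, clodronate-liposome replicate 3 was highest for 16 of 18 G1/S genes and 16 of 24 G2/M genes, against 4374 of 18193 genes. The array with the highest value of all 6 was clodronate-liposome replicate 3 for 9 G1/S genes and PBS-liposome replicate 3 for 5.

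**Figure D3:**
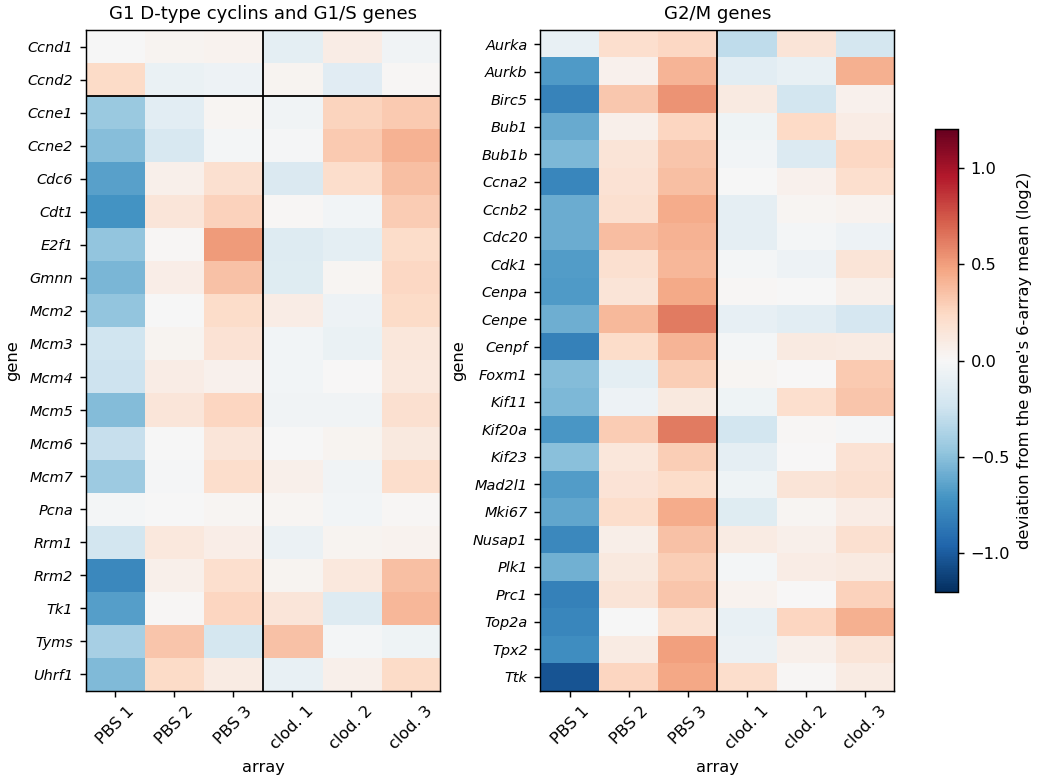
Deviation of each gene (rows) from its 6-array mean (colour, log2, blue low and red high) on each array (columns, PBS for PBS-liposome and clod. for clodronate-liposome, with replicate number), with D-type cyclins and G1/S genes in the left and G2/M genes in the right panel. The first column is blue for nearly every gene but Ccnd1, Ccnd2 and Pcna, and the third column is red for G2/M genes.

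The phases also differed in the spread within the groups. Over the PBS-liposome arrays the median range was 0.18 for D-type cyclins, 0.71 for G1/S genes and 1.07 for G2/M genes, against 0.22 for all genes. Over the clodronate-liposome arrays it was 0.19, 0.32 and 0.23, against 0.26 for all genes. The range exceeded 1, a 2-fold difference between arrays of 1 group, for 15 members in the PBS-liposome group and for 0 in the clodronate-liposome group. By their range in the PBS-liposome group, 23 of 24 G2/M genes and 11 of 18 G1/S genes were in the top 10% of all genes, and by their range in the clodronate-liposome group 0 were. The difference in spread between the groups was not tested, since each rests on 3 arrays and PBS-liposome replicate 1 sets most of it.

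**Figure D4:**
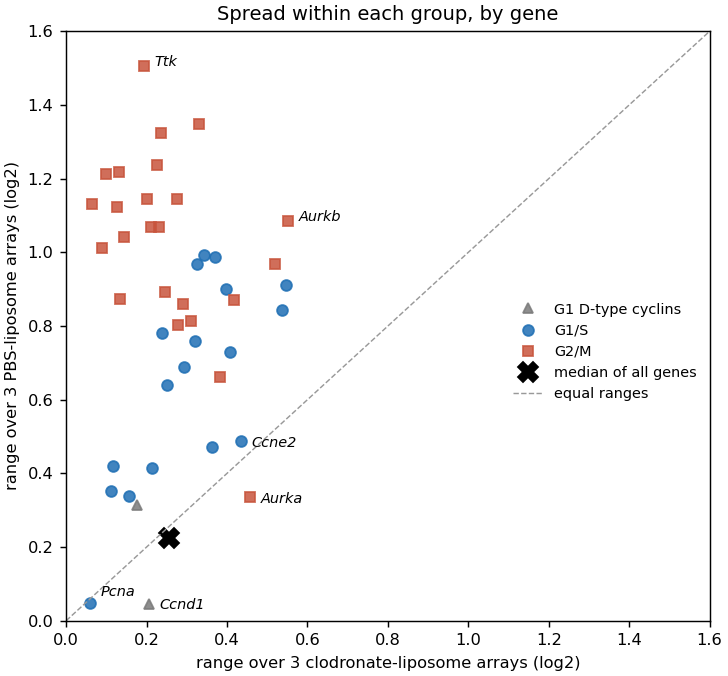
Range over the 3 PBS-liposome arrays (y axis, log2) against the range over the 3 clodronate-liposome arrays (x axis, log2) for each gene, by phase, with the median of all genes as a cross and a dashed line of equal ranges. Of the 44 genes, 41 lie above the line, and Ttk is highest at 1.51 while Pcna and Ccnd1 sit at the bottom.

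The spread was set beside the motif content of the promoters within each phase. The median range over the PBS-liposome arrays was 1.01 for the 15 G2/M genes with a CHR and a CCAAT box and 1.17 for the 4 without (Birc5, Cenpe, Mad2l1 and Nusap1). For G1/S genes it was 0.76 for the 9 with an E2F word and 0.71 for the 6 without. Pcna and Ccne1 were among those 6. With so few genes a side, these medians are a description.

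Since 1 control array carried so much of the spread, the comparison was repeated without each array. Without PBS-liposome replicate 1, 21 of 24 G2/M genes were below 0, with a median difference of -0.24, and 13 of 18 G1/S genes were below 0, with a median of -0.02. At an unadjusted p under 0.05 there were then 6 lower G2/M genes, Cenpe, Cdc20, Kif20a, Birc5, Ccnb2 and Mki67, against 5.02% of all genes, and 0 passed adjustment. The smallest adjusted p was 0.167 for Cenpe (difference -0.65). Ccne1 and Ccne2 were still above 0 in that comparison, at 0.23 and 0.35. Without PBS-liposome replicate 3, the medians were 0.32 for G2/M and 0.25 for G1/S genes, and 40 of 44 members were above 0. The direction of the G2/M genes between the groups thus changed with the control array left out. Replicate 1 was the lowest and replicate 3 the highest control array for all 24 G2/M genes. Leaving out replicate 1 therefore had to lower these differences, and leaving out replicate 3 had to raise them. Members also move together across arrays, so the 6 genes are not independent of each other.

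**Figure D5:**
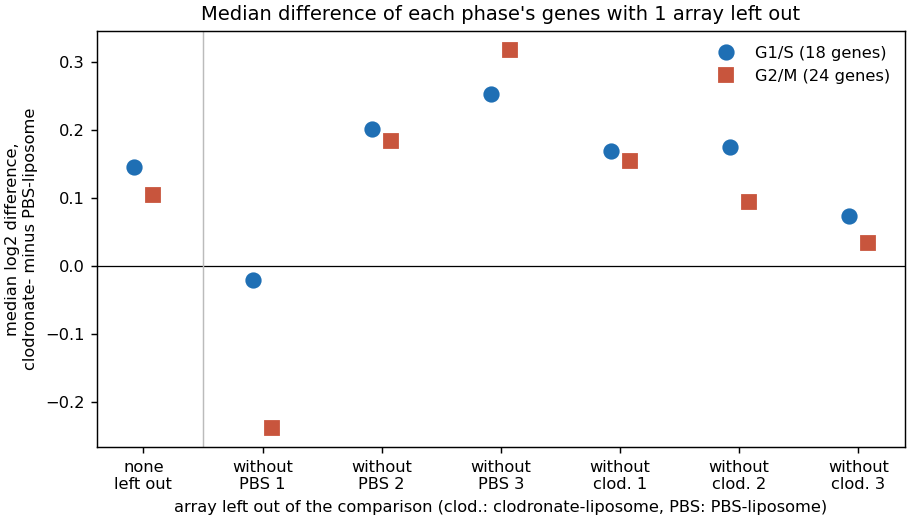
Median log2 difference, clodronate-liposome minus PBS-liposome (y axis), over 18 G1/S genes (blue circles) and 24 G2/M genes (red squares), with no array and with each of the 6 arrays left out (x axis). The G2/M median is -0.24 without PBS-liposome replicate 1 and 0.32 without PBS-liposome replicate 3, and the G1/S median is -0.02 and 0.25.

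Further genes of the same machinery were read from lists of genes that are no members. Of 36 other mitotic genes, 35 were measured (all but Ccnb1). Their level was -0.60, 0.14 and 0.31 in PBS-liposome replicates 1, 2 and 3 and -0.03, 0.04 and 0.15 in clodronate-liposome replicates 1, 2 and 3. As for the G2/M members, the lowest array was PBS-liposome replicate 1 and the highest PBS-liposome replicate 3. Of 30 other replication genes, 28 were measured, with levels of -0.35, 0.05 and 0.13 and of -0.0037, 0.04 and 0.12. Median differences were 0.08 for the mitotic and 0.09 for the replication genes, and 0 genes of either list passed. At an unadjusted p under 0.05, 2 of 28 replication genes were higher, against 4.54% of all genes. One was Pola1, the catalytic subunit of the polymerase that primes replication (9.14, 9.75 and 9.89 against 10.13, 10.07 and 9.99, difference 0.47, adjusted p = 0.416 by limma). The other was Pola2, its partner subunit (difference 0.23, adjusted p = 0.454). Among the mitotic genes the smallest p was that of Ncaph of the condensin complex (difference 0.39, adjusted p = 0.466).

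The inhibitors of cyclin-dependent kinases, which hold cells in G1, differed among themselves. Of 7 measured, 0 passed, and at an unadjusted p under 0.05 there were 3 lower, against 5.49% of all genes, and 1 higher, against 4.54%. Cdkn2c, an inhibitor of CDK4 and CDK6, had log2 signals of 10.05, 10.37 and 10.78 in PBS-liposome replicates 1, 2 and 3 and of 10.49, 10.47 and 10.70 in clodronate-liposome replicates 1, 2 and 3. It was lowest and highest on the same arrays as the G2/M level. Of the 7, it was the 1 inhibitor lowest of all 6 arrays in PBS-liposome replicate 1. The level of the 7 was 0.02, -0.02 and 0.11 in PBS-liposome replicates 1, 2 and 3. Cdkn2d, of the same family, had log2 signals of 11.58, 11.49 and 11.43 in PBS-liposome replicates 1, 2 and 3 and of 11.02, 10.92 and 10.89 in clodronate-liposome replicates 1, 2 and 3, with no overlap. Its difference was -0.56 (95% interval -0.78 to -0.34, adjusted p = 0.0781 by limma), and it passed in 3 other settings. Over all settings its adjusted p ran from 0.0303 to 0.266. Cdkn1c differed by -0.32 (adjusted p = 0.352) and Cdkn2a by 0.55 (adjusted p = 0.367).

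The 15 genes of the RB and E2F family and the 10 other cyclins and kinases gave 0 calls. Mybl2, the gene of B-MYB, had 7.85, 8.44 and 8.61 in PBS-liposome replicates 1, 2 and 3 and 9.05, 8.55 and 9.04 in clodronate-liposome replicates 1, 2 and 3 (difference 0.57, adjusted p = 0.391). E2f2, an activating E2F, differed by 0.50 and Rbl2, a pocket protein that holds E2F targets off in resting cells, by 0.29 (adjusted p = 0.504 for each). Ccnd3, the remaining D-type cyclin, differed by -0.08, and Skp2, the ubiquitin ligase subunit that targets the CDK inhibitor p27, by 0.34.

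Markers of other cells that could bring cycling transcripts were read on the same arrays. The level of 10 pan-leukocyte markers was -0.04, 0.07 and 0.39 in PBS-liposome replicates 1, 2 and 3 and -0.18, -0.06 and -0.18 in clodronate-liposome replicates 1, 2 and 3. That of 12 macrophage markers was 0.18, -0.10 and 0.34 in the control and -0.17, -0.06 and -0.18 in the treated arrays. Over the PBS-liposome arrays the leukocyte level had the same order as the G2/M level. Replicate 1 was lowest of them for 8 of 10 leukocyte markers and replicate 3 highest for 9. The macrophage level was lowest in replicate 2. In PBS-liposome replicate 1 the leukocyte level, -0.04, lay close to that of the highest treated array, -0.06. Ptprc, the gene of CD45, had 8.48, 8.71 and 8.57 against 7.66, 8.22 and 8.13 (difference -0.58, adjusted p = 0.217), and Adgre1, a macrophage gene, had 7.31, 6.94 and 7.85 against 7.16, 7.30 and 7.14. Of the pan-leukocyte markers 10 of 10 and of the macrophage markers 11 of 12 were lower in the treated group, and 0 passed.

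Genes of dividing myeloid precursors (Elane, Mpo, Prtn3, Ctsg and Ms4a3) had a median mean signal of 6.85, under the array median, and levels between -0.11 and 0.07. Erythroid markers (8 of 10 measured) had levels of -0.04, 0.05 and 0.13 in the PBS-liposome and 0.17, -0.18 and -0.13 in the clodronate-liposome arrays. Levels of 9 epithelial markers were 0.19, -0.07 and -0.10 and then -0.20, 0.04 and 0.15. Single epithelial markers spread far more than this level. Over the clodronate-liposome arrays their median range was 0.91, against 0.26 for all genes, and the widest was 4.29. Over the PBS-liposome arrays the widest was 1.61. Levels of 10 fibroblast and mural markers were -0.08, 0.10 and 0.14 and then 0.06, -0.21 and -0.01. The pan-endothelial level was -0.02, -0.06 and 0.01 and then 0.12, -0.08 and 0.03, a range far below that of the cycle genes. The part of other cells in the values of the cell cycle genes was not tested. On the quality controls, the 18S ribosomal RNA signal was 12.63, 12.39 and 12.56 in the PBS-liposome and 13.01, 12.33 and 13.00 in the clodronate-liposome arrays, and PBS-liposome replicate 1 lay within the range of the others. The log2 difference between the 3′ and 5′ control probe sets of Gapdh, a sign of RNA quality, was 0.39, 0.19 and 0.23 in the PBS-liposome and 0.41, 0.21 and 0.56 in the clodronate-liposome arrays, so within the control group it was highest in PBS-liposome replicate 1. For actin the same measure was 0.30, 0.40 and 0.35 in the PBS-liposome and 0.17, 0.40 and 0.18 in the clodronate-liposome arrays, lowest of the control group in replicate 1. The part of RNA quality in the low cycle gene values of that array was not tested.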

How the data were processed

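Per the study's methods, the authors made the deposited log2 values from scanner files by robust multiarray averaging in Chipster, which gives all arrays one distribution (sorted values differed by at most 0.056), so a change shared by most genes is not visible. The table was used as deposited. Of 45101 probe sets, 64 controls were left out of tests. Of the other 45037, 34945 carried 1 symbol in the platform annotation, 932 several and 9160 none.

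The 2 groups of 3 arrays were compared as in the study's methods by empirical Bayes (limma 3.58.1 under R 4.3.3, two-sided, 4 residual and 3.90 prior degrees of freedom), with Benjamini-Hochberg adjustment over all tested probe sets. P values measure only the spread between these samples. Phase levels have no p, since the members were chosen with results known. An exact permutation test of 3 against 3 arrays also cannot go below 0.1. The steps were tested on simulated data.

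The members, lists, motifs and naming rule were chosen with earlier results of these data known. The rule named, in each phase, the 4 members with the smallest p and the 2 widest ranges per group, then a set of well-known members, up to 3 genes per pathway list by p, and cell type markers. Other members were named for their role after their values were seen. Cdkn2c is outside the rule and was also named after its values were seen. Alternatives were low signals left out, a second quantile normalization, median centring, other variance models, array weights, the replicate block, other probe sets per gene and leaving out each array.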

Additional observations from a re-analysis of the deposited data

How the results depend on the processing

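In every setting run, 0 of the 44 members passed the threshold. Over all genes, the number of probe sets called moved more than 1.5-fold from 138: it was 244 with low signals left out, 248 with a trended and robust variance model, 234 with array weights, and 6 to 73 without 1 array. The replicate numbers do not pair the samples by design. Deviations of same-numbered arrays correlated at 0.075, 0.070 and 0.036, and every array correlated best with its own number, a hint from the data and not from the design. With the replicate block, 0 probe sets were called by limma, with 5033 at an unadjusted p under 0.05. Of the 95 other cycle genes measured, 1 (Cdkn2d) was called with low signals left out, with the trended and robust variance model and with the mean of all probe sets. On z-scores the contrast between the phases differed by 0.35, a value in another unit than the 0.08 reported. The causes were not tested.

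Differences of uncalled genes changed sign as follows. With the most variable probe set they were 0.075 for Ccnd1, -0.051 for Mcm6, -0.049 for Uhrf1, 0.21 for Aurka, 0.012 for Cdc20, -0.13 for Kif23, -0.43 for Nusap1, -0.20 for Pola2 and 0.53 for Cdk7. With the mean of all probe sets they were 0.020 for Ccnd1, -0.033 for Mcm3, -0.024 for Kif23, -0.096 for Nusap1 and 0.31 for Cdk7. With array weights they were -0.0036 for Rrm1 and -0.019 for Cenpa. Without 1 array, differences of 37 named genes took both signs, with these lowest and highest values: Ccnd1 -0.098 to 0.0048, Ccnd2 -0.12 to 0.042, Cdt1 -0.12 to 0.38, Mcm2 -0.019 to 0.33, Mcm3 -0.095 to 0.11, Mcm4 -0.039 to 0.13, Mcm5 -0.16 to 0.23, Mcm6 -0.021 to 0.19, Mcm7 -0.020 to 0.30, Pcna -0.0020 to 0.027, Rrm1 -0.10 to 0.074, Gmnn -0.17 to 0.28, E2f1 -0.28 to 0.22, Tk1 -0.0066 to 0.45, Uhrf1 -0.099 to 0.28, Mki67 -0.34 to 0.19, Ccna2 -0.18 to 0.39, Ccnb2 -0.33 to 0.19, Cdk1 -0.27 to 0.26, Plk1 -0.15 to 0.28, Aurkb -0.16 to 0.38, Bub1 -0.065 to 0.37, Bub1b -0.23 to 0.21, Cdc20 -0.46 to 0.045, Cenpa -0.29 to 0.28, Cenpf -0.26 to 0.35, Kif20a -0.54 to 0.12, Kif23 -0.20 to 0.21, Birc5 -0.45 to 0.22, Tpx2 -0.25 to 0.37, Nusap1 -0.089 to 0.47, Prc1 -0.14 to 0.44, Ttk -0.25 to 0.50, Mad2l1 -0.097 to 0.35, Ccnd3 -0.13 to 0.015, Cdk7 -0.14 to 0.035 and Adgre1 -0.38 to 0.078. Ccne1 and Ccne2 kept their sign in every setting, as did Cdc6, Rrm2, Tyms, Top2a, Kif11, Foxm1 and Cenpe in each setting that held them.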
